A study of Homo sapiens with 8 samples.

Results

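The transcripts described here are 10 genes of the Hippo pathway: secreted and surface products that YAP and TAZ switch on (CCN1, CCN2, AXL, IGFBP3), a nuclear cofactor that they switch on (ANKRD1), a guanine nucleotide exchange factor counted among those targets (ARHGEF17), and regulators of the pathway that are targets as well (AMOTL1, AMOTL2, LATS1, LATS2). They were chosen by the gene name on the array, where CCN1 and CCN2 carry their older names CYR61 and CTGF, and every probe with such a name was taken. This gave 16 probes out of 41000 on the array, for 10 of the 17525 genes that could be named. RNA came from CAL-27, an established line of squamous carcinoma of the head and neck. Cells grown in medium with serum went without serum for 24 h before a treatment of 24 h. The treatments were none (control, 3 arrays), enzastaurin, an inhibitor of protein kinase C, at 10 µM (3 arrays) and Go, a compound known only by this name in the labels, with no dose stated (2 arrays). Serum starvation was common to all groups, and whether the controls received a vehicle is not stated in the labels. All arrays are of 1 cell line, and the labels do not say whether replicates were separate cultures, so a p-value here speaks for the spread among arrays, which may be technical.

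The Hippo pathway is a chain of kinases that restrains growth. When it is active, LATS1 and LATS2 phosphorylate YAP and TAZ, which are then held in the cytoplasm or degraded. When it is inactive, YAP and TAZ enter the nucleus, bind TEAD transcription factors and switch on genes of matrix, adhesion and growth, and in squamous cells they are known to respond to attachment, cell density and tension in the cytoskeleton.

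Promoter sequences from RefSeq (GRCh38.p14), 250 bases before to 50 after a start site, were at hand for 8 of the 10 genes, 11 sequences in all. Those of 4 genes that recur in the results below are printed because each holds the core of the TEAD recognition sequence, GGAATG on one strand and CATTCC on the other. Matches are in capitals, each line runs 5′ to 3′ in the direction of the gene, and positions give the first base of a match from the start site. CCN2 (chr6:131951323-131951622, minus strand) has 3 matches, at -169, -104 and -95. AMOTL2 (chr3:134374398-134374697, minus strand) has 1 at -69, LATS2 (chr13:21061537-21061836, minus strand) 1 at 9 and AXL (chr19:41226505-41226804, plus strand) 1 at -212.
CCN2: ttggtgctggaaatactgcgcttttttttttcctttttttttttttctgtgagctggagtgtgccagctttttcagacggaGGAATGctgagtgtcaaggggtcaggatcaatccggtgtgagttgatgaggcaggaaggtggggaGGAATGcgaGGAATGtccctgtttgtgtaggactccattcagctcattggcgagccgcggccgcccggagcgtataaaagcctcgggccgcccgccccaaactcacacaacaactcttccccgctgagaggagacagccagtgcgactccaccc
AMOTL2: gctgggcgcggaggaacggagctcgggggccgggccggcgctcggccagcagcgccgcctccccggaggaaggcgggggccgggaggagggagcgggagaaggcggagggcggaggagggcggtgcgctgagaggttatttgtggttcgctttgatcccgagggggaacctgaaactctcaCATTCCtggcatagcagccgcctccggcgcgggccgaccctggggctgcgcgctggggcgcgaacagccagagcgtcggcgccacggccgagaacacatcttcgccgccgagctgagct
LATS2: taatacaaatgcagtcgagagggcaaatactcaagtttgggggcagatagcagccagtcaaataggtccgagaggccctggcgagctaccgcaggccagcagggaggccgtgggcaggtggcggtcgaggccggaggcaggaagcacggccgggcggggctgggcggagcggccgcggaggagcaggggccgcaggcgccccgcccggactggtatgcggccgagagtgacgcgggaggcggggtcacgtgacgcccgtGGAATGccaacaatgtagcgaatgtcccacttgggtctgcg
AXL: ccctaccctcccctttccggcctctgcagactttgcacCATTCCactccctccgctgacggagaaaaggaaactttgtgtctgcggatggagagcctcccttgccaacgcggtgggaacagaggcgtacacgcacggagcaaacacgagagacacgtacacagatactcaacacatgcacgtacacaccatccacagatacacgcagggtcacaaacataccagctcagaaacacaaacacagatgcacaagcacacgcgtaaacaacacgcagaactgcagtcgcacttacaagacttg
Of 35116 promoters of this length in the same table, 14% hold the motif at least 1 time, 1.37% at least 2 times and 0.128% at least 3 times, the number in CCN2. ANKRD1 had 2 matches, at -220 and -128. None was found in the windows of AMOTL1, LATS1 or IGFBP3. The other window of AMOTL2 (chr3:134375368-134375667) and that of AXL (chr19:41218973-41219272) held none either. In each of these genes the window without a match lies upstream of the printed one. A match is a description of the letters and not a binding site.

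Values are the deposited background-subtracted intensities, turned to log2 after adding 50 and quantile normalised between arrays. A probe was tested if its spot was above background (signal-to-noise over 3) on at least 2 arrays, which 24772 probes met, and a difference was called at an adjusted p under 0.05 in limma with Benjamini-Hochberg adjustment over all of them. On a given array 52.1% to 57.3% of probes were above background. By spot positions, and not by any label, 1 slide carried the 3 controls with Go 1 and the other the 3 enzastaurin arrays with Go 2. Along the first slide the order was control 1, 2, 3 and Go 1, and along the second Go 2 and enzastaurin 1, 2 and 3. Place along a slide thus goes with group as well, and the 2 cannot be told apart within a slide. Since no slide holds both enzastaurin and control, the arrays of these groups alone cannot tell their difference from that of the slides. Only Go, with 1 array on each slide, links the slides, and a difference between its arrays cannot be told apart from one between slides. Taking the slide as a block reduces Go against control to Go 1 against the controls, and Go against enzastaurin to Go 2 against enzastaurin. In the same block, enzastaurin against control is corrected by the difference of Go 1 and Go 2. The controls also spread: control 1 and control 3 differed by a root mean square of 0.466 on the log2 scale over the tested probes, more than control 3 and Go 1 (0.361). Among the enzastaurin arrays the same measure ran from 0.122 to 0.152. Of 9 squamous epithelial markers found on the array (KRT5, KRT14, TP63 and others), 9 were above background on all 8 arrays. Their mean log2 value was 12.19 to 12.42 on controls, 12.17 to 12.21 with enzastaurin and 11.94 to 11.98 with Go. Of the 9, 4 were called lower and 0 higher with Go than with control, against 15.9% and 13% of all tested probes. Enzastaurin against control called 1 higher and 1 lower, against 51.9% of all tested probes called. Go against enzastaurin called 1 lower, against 3.83% called. Of 6 leukocyte markers 3 were above background on all arrays (CD3E, CD14, CD68) and 2 on none (PTPRC, LYZ). Of 6 endothelial markers it was 1 (VWF) and 3 (PECAM1, KDR, TEK), and of 7 fibroblast markers 1 (COL1A1) and 2 (PDGFRA, PDGFRB). On the unscaled deposited scale, the summed intensity on control, enzastaurin and Go arrays was 49134 to 61408, 61868 to 82967 and 54969 to 55450 for the squamous list and 329 to 398, 352 to 441.5 and 310.5 to 445.5 for the leukocyte list. It was 164.5 to 187.5, 112.5 to 133 and 79.5 to 208 for the endothelial list and 106.5 to 142.5, 152 to 219 and 135.5 to 180.5 for the fibroblast list. The part of these levels in the results was not tested, and fewer cells and less RNA per cell cannot be told apart in bulk RNA.

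Of the 16 probes, 12 were above background on all 8 arrays, and they cover 8 genes. The single probes of ANKRD1, a nuclear cofactor with ankyrin repeats, and of LATS1 were above background on no array, with deposited intensities of 2 to 12 and 10 to 28. Another probe of AMOTL1 (A_24_P401768) and another of ARHGEF17 (A_24_P196413) were so on 1 array each, at 5 to 40 and 0.5 to 35. These 4 probes were not tested and bear on none of the counts below. The plot of each tested probe by array shows the measured values.

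**Figure D1:**
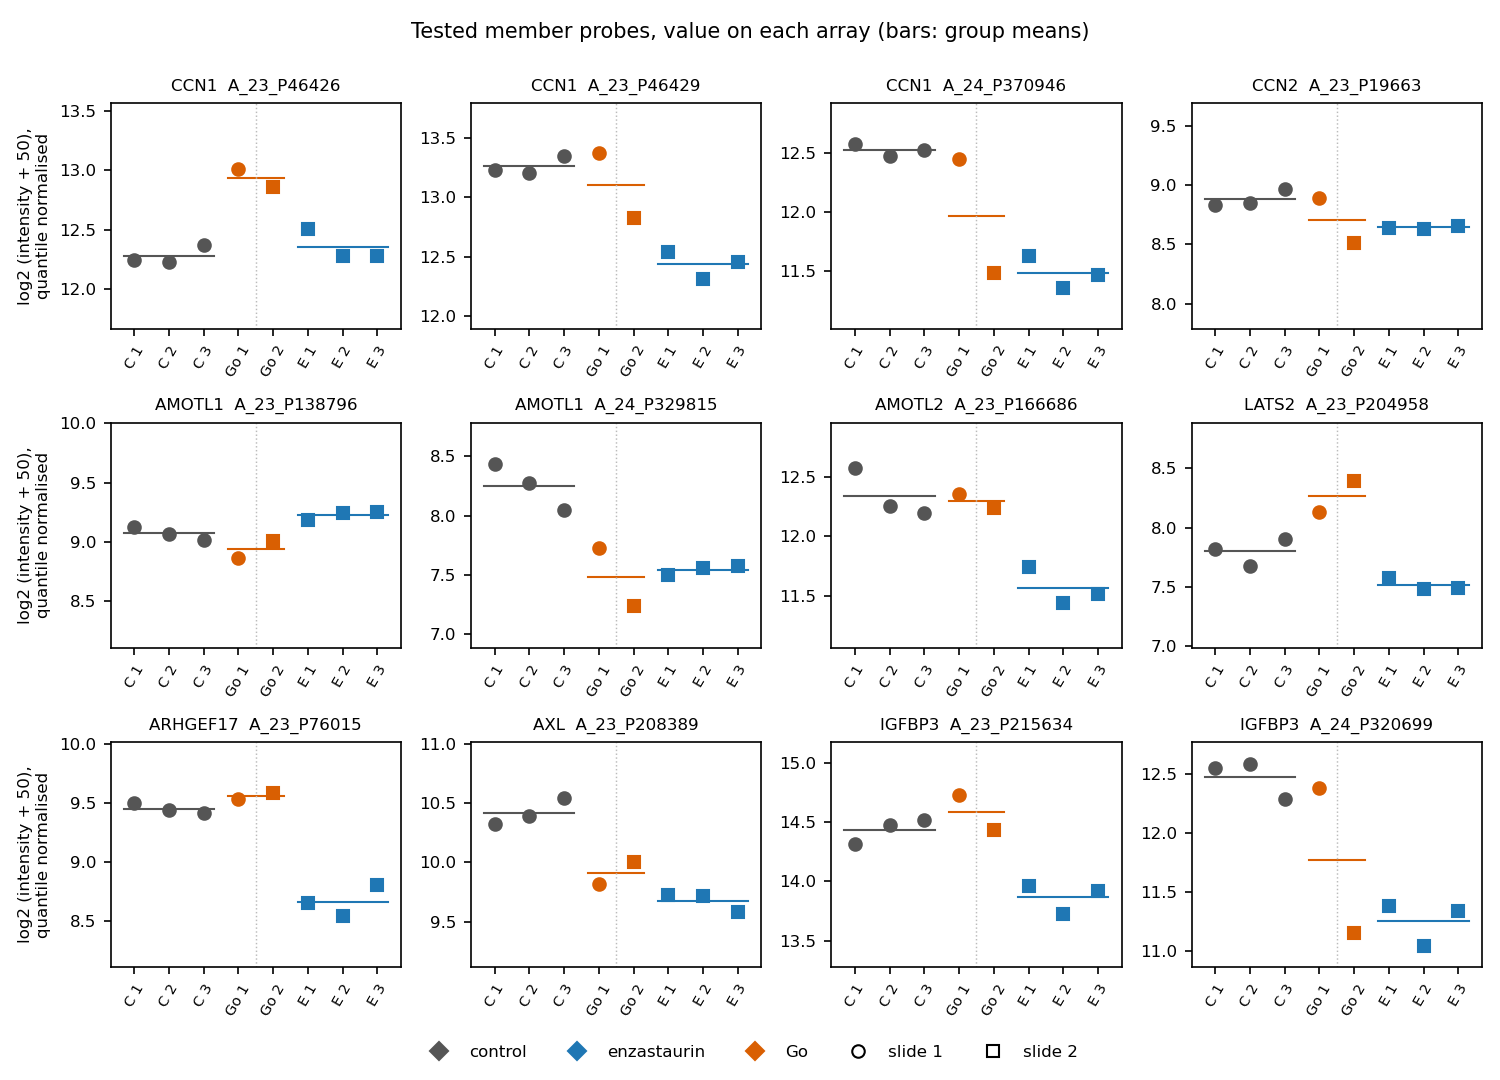
Log2 intensity (plus 50, quantile normalised) of the 12 tested probes, 1 panel each, for control (C), Go and enzastaurin (E) arrays. Circles are arrays of the first slide, squares of the second, and bars are group means. ARHGEF17 lies between 9.41 and 9.58 on control and Go arrays and between 8.54 and 8.80 with enzastaurin, while CCN1 A_24_P370946 and IGFBP3 A_24_P320699 split the Go arrays.

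Enzastaurin was compared with control to see how these genes stand after treatment with this inhibitor. ARHGEF17, AXL, AMOTL2, both IGFBP3 probes, 2 of the 3 CCN1 probes and 1 of the 2 tested AMOTL1 probes were lower with enzastaurin, by log2 differences of -0.57 to -1.21, and LATS2 was lower by a smaller step. In all 9 of the 12 tested probes were called lower and 0 higher in limma, against 51.9% of all tested probes called (30.2% lower, 21.7% higher), and at an unadjusted p under 0.05 the counts were also 9 and 0. The groups did not overlap for 11 of the 12 probes, against 67.1% of all tested. The median difference of the 12 was -0.73, and that of all tested probes -0.08. In the fit blocked by slide, AXL was the 1 probe of the 12 still called, against 2.91% of all tested probes (1.51% lower, 1.4% higher), and the median of the 12 was -0.24. With each array scaled to its median, the median difference of all tested probes moved from -0.08 to 0.06, the share of all called probes that were higher from 41.8% to 61.3%, and the counts of the 12 to 8 lower and 2 higher.

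Go was compared with the same controls, so the 2 comparisons share those arrays. CCN1 A_23_P46426 and LATS2 were higher with Go, and AXL and AMOTL1 A_24_P329815 were lower. That is 4 called probes of 12, against 28.8% of all tested (13% higher, 15.9% lower). The groups did not overlap for 7 of 12, against 56.3% of all tested. The median of the 12 was -0.15, beside -0.07 for all tested probes. With the slide as a block 2 of the 12 were called, CCN1 A_23_P46426 and AXL, against 5.39% of all tested (3.3% higher, 2.1% lower). Without control 2 only CCN1 A_23_P46426 was called, where 986 of all 24772 probes were. In a fit without the enzastaurin arrays none of the 12 passed in limma, where 1 of all 24772 probes did. At an unadjusted p under 0.05 in that fit, 2 of the 12 were higher and 2 lower. After scaling to the median, 64.4% of all called probes were higher in place of 44.9%, and 3 of the 12 were called (2 higher, 1 lower).

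Go was then set against enzastaurin, whose arrays all lie on the second slide. ARHGEF17, LATS2, AMOTL2, IGFBP3 A_23_P215634 and CCN1 A_23_P46426 were higher with Go, by log2 differences of 0.58 to 0.89. These are 5 of 12 called higher and 0 lower, against 2.09% and 1.74% of all tested probes, and 3.83% in both directions. At an unadjusted p under 0.05 in limma 6 were higher and 1 lower. The groups did not overlap for 8 of 12, against 45.5% of all tested, and the median of the 12 was 0.54 beside 0.01. Within the second slide, Go 2 against enzastaurin, ARHGEF17 and LATS2 were called, against 4.63% of all tested (2.08% higher, 2.54% lower). The count was 1 without enzastaurin 1, 2 or 3, where 149, 106 and 156 of all 24772 probes were called. It was 2 without control 2, where 345 of all 24772 were called. Scaled to the median, 32.4% of all called probes were higher in place of 54.6%, and 4 of the 12 were called, all higher. Since no dose of Go is given, the difference is one between these treatments and not between compounds at a matched dose.

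**Figure D2:**
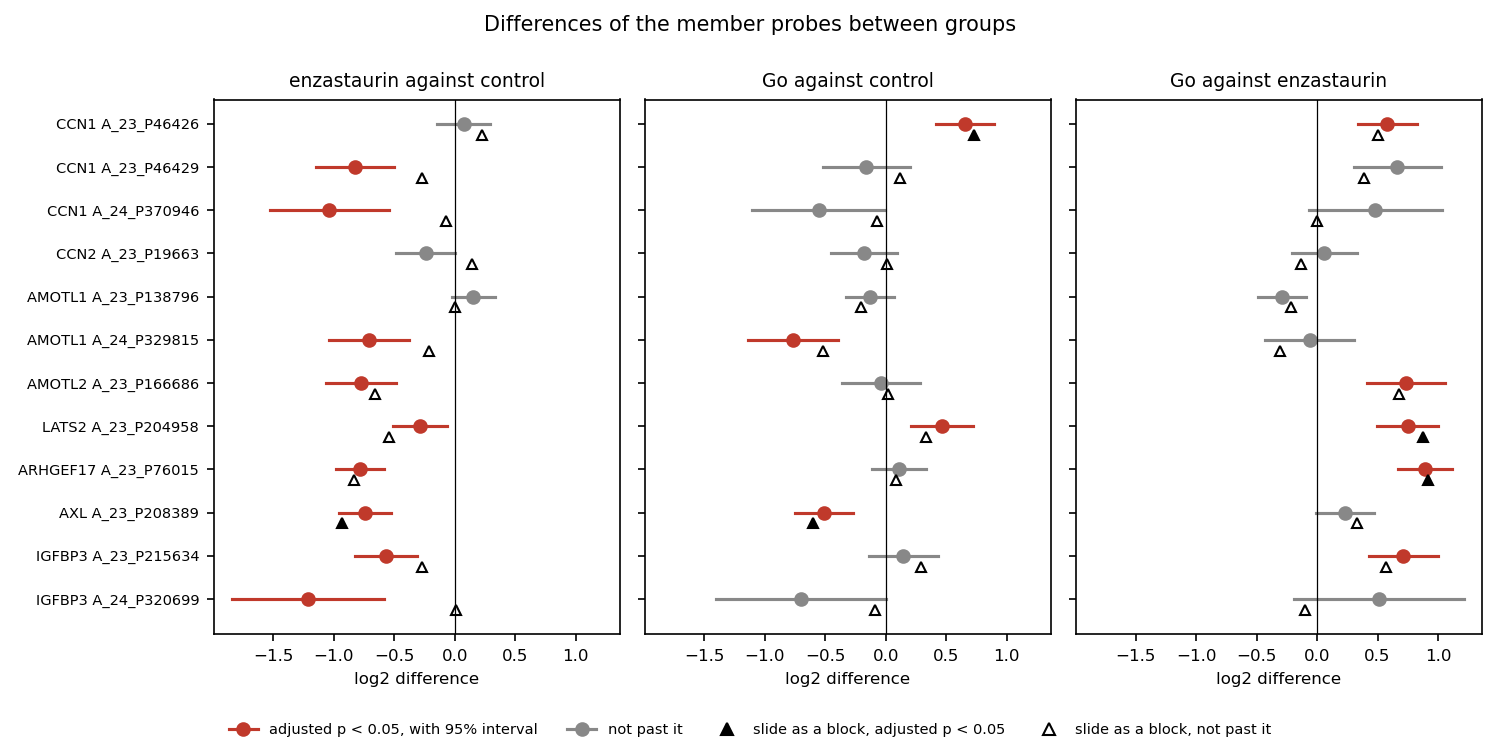
Log2 difference of each tested probe in the 3 comparisons, with its 95% interval from limma (circles; red where adjusted p is under 0.05), and the same difference with the slide as a block (triangles; filled where called). For IGFBP3 A_24_P320699 the difference of enzastaurin from control moves from -1.21 to 0.0074 with the block, while AXL moves from -0.74 to -0.93 and ARHGEF17 from -0.78 to -0.83.

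ARHGEF17 encodes a guanine nucleotide exchange factor, a protein that switches on small GTPases. Its tested probe, A_23_P76015, read 9.50, 9.44 and 9.41 on the control arrays, 8.65, 8.54 and 8.80 on the enzastaurin arrays and 9.54 and 9.58 on the Go arrays. Control and Go arrays lay together above all 3 enzastaurin arrays, with a gap wider than the spread within any group. Enzastaurin was lower than control by a log2 difference of -0.78 (SE 0.087, adjusted p = 0.000633), 1.72-fold, and Go was higher than enzastaurin by 0.89 (SE 0.097, adjusted p = 0.006), 1.86-fold. The difference of Go from control was 0.11 (95% interval -0.11 to 0.33, adjusted p = 0.399). Once slide was a block, the difference from control was -0.83 (adjusted p = 0.0516) and that of Go from enzastaurin 0.92 (adjusted p = 0.0167). The call of Go over enzastaurin was made in 18 of 18 alternative settings, with an adjusted p of 0.00204 to 0.041.

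AXL is a receptor tyrosine kinase and a direct YAP target in several tumour types. Probe A_23_P208389 read 10.33, 10.39 and 10.55 on the control arrays, 9.73, 9.72 and 9.58 on the enzastaurin arrays and 9.82 and 10.00 on the Go arrays. All 5 treated arrays lay below all 3 controls, the enzastaurin arrays below the Go arrays. The difference from control was -0.74 with enzastaurin (SE 0.094, adjusted p = 0.000853) and -0.51 with Go (SE 0.105, adjusted p = 0.016). With the slide as a block these were -0.93 (adjusted p = 0.0393) and -0.60 (adjusted p = 0.0364). The enzastaurin call was made in 18 of 18 alternatives, and the Go call was lost without control 2 (adjusted p = 0.0577) and with arrays scaled to the median (0.0881). Between the treatments the difference was 0.23, with a 95% interval of -0.01 to 0.47 (adjusted p = 0.24).

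CCN1 is a secreted matricellular protein that binds integrins and one of the most used readouts of YAP activity. Its 3 probes did not move alike. A_23_P46426 read 12.24, 12.22 and 12.37 on the control arrays, 12.50, 12.28 and 12.28 on the enzastaurin arrays and 13.01 and 12.86 on the Go arrays. Both Go arrays were above all others on this probe, while control and enzastaurin overlapped. Go differed from control by 0.65 (SE 0.105, adjusted p = 0.00931; 0.73 and adjusted p = 0.0227 with the slide as a block) and from enzastaurin by 0.58 (SE 0.105, adjusted p = 0.0278). The second of these calls was lost with the block (0.51, adjusted p = 0.0684), without enzastaurin 1, 2 or 3 (adjusted p = 0.0648, 0.13 and 0.106), without control 2 (0.0658) or Go 1 (0.0684) and with arrays scaled to the median (0.059). Enzastaurin differed from control by 0.07 on this probe (95% interval -0.14 to 0.29, adjusted p = 0.53), and by 0.33 with arrays scaled to the median, which passed (adjusted p = 0.0275).

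The other CCN1 probes gave a different picture for enzastaurin. A_23_P46429 read 13.23, 13.20 and 13.35 on the control arrays, 12.54, 12.31 and 12.46 on the enzastaurin arrays and 13.38 and 12.82 on the Go arrays. A_24_P370946 read 12.57, 12.47 and 12.52 on the control arrays, 11.63, 11.36 and 11.47 on the enzastaurin arrays and 12.45 and 11.48 on the Go arrays. On both, all enzastaurin arrays lay below all controls, Go 1 lay with or near the controls, and Go 2 was lower. Enzastaurin differed from control by -0.83 (SE 0.141, adjusted p = 0.00242) and -1.04 (SE 0.214, adjusted p = 0.00524), and both calls held whichever single array was left out. Under the slide block the differences were -0.27 (adjusted p = 0.336) and -0.07 (adjusted p = 0.825). Go differed from control by -0.16 and -0.56 (adjusted p = 0.444 and 0.108), and without Go 1 by -0.44 and -1.04 (adjusted p = 0.0274 and 0.00162). Go differed from enzastaurin by 0.66 and 0.48 (adjusted p = 0.0595 and 0.281), and without Go 2 by 0.94 and 0.96, with an adjusted p of 0.00473 for each.

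CCN2, the connective tissue growth factor and close relative of CCN1, has 1 probe, A_23_P19663. It read 8.84, 8.85 and 8.97 on the control arrays, 8.64, 8.63 and 8.66 on the enzastaurin arrays and 8.89 and 8.51 on the Go arrays. The enzastaurin arrays lay below the controls by a narrow margin, and Go 1 fell among the controls while Go 2 was the lowest array. The difference of enzastaurin from control, -0.24 (SE 0.105, 95% interval -0.48 to 0.00), did not pass (adjusted p = 0.0861). It passed in a limma fit of only the enzastaurin and control arrays (adjusted p = 0.0208). Leaving out Go 1 or Go 2 repeats that fit for this comparison, since a single Go array adds nothing to the spread. With the slide as a block the difference was 0.14. Go differed from control by -0.18 (adjusted p = 0.255), by -0.37 without Go 1 (adjusted p = 0.0236), and from enzastaurin by 0.06 (95% interval -0.21 to 0.33). With all arrays in the fit CCN2, whose promoter with 3 TEAD core matches is printed above, passed in none of the 3 comparisons.

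IGFBP3 encodes a secreted carrier of insulin-like growth factors. Probe A_23_P215634, spotted 10 times on each array, read 14.31, 14.48 and 14.51 on the control arrays, 13.96, 13.72 and 13.92 on the enzastaurin arrays and 14.73 and 14.43 on the Go arrays. Probe A_24_P320699 read 12.55, 12.58 and 12.28 on the control arrays, 11.38, 11.05 and 11.34 on the enzastaurin arrays and 12.38 and 11.16 on the Go arrays. Enzastaurin arrays were below all controls on each probe. On the first probe Go 1 lay above all controls and Go 2 among them. On the second the Go arrays split, Go 1 among the controls and Go 2 among the enzastaurin arrays. Enzastaurin differed from control by -0.57 (SE 0.111, adjusted p = 0.0041) and -1.21 (SE 0.273, adjusted p = 0.00752), and with the slide as a block by -0.27 (adjusted p = 0.376) and 0.0074 (adjusted p = 0.988). Go differed from enzastaurin by 0.71 on the first probe (SE 0.124, adjusted p = 0.0242). That call was lost without enzastaurin 1, 2 or 3 (adjusted p = 0.084, 0.111 and 0.0847), control 2 (0.0596) or Go 1 (0.0582, the value of the block as well). On the second probe it was 0.51 (adjusted p = 0.359), and 1.12 without Go 2 (adjusted p = 0.00928). Go differed from control by 0.14 and -0.70 (adjusted p = 0.386 and 0.11), the second being -1.31 without Go 1 (adjusted p = 0.00226).

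AMOTL1 and AMOTL2 belong to the angiomotins, junction proteins that bind YAP and keep it out of the nucleus. AMOTL2, measured by A_23_P166686, read 12.58, 12.25 and 12.20 on the control arrays, 11.74, 11.44 and 11.51 on the enzastaurin arrays and 12.36 and 12.24 on the Go arrays. The Go and control arrays overlapped and lay above the enzastaurin arrays. Enzastaurin differed from control by -0.78 (SE 0.125, adjusted p = 0.00196; -0.66 and adjusted p = 0.163 with the slide as a block) and Go from enzastaurin by 0.73 (SE 0.14, adjusted p = 0.0323). The latter call was lost with the block (0.67, adjusted p = 0.0796), without enzastaurin 1, 2 or 3 (0.0743, 0.139 and 0.118), control 2 (0.0698) or Go 1 (0.0796), with arrays scaled to the median (0.0509) and with no filter on dim probes (0.0508). Go differed from control by -0.04, with a 95% interval of -0.37 to 0.28.

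For AMOTL1, probe A_24_P329815 read 8.43, 8.28 and 8.05 on the control arrays, 7.50, 7.56 and 7.57 on the enzastaurin arrays and 7.73 and 7.24 on the Go arrays. All 5 treated arrays were below all controls. Enzastaurin differed from control by -0.71 (SE 0.144, adjusted p = 0.00489) and Go by -0.77 (SE 0.161, adjusted p = 0.0166), and the treatments differed by -0.06. With the slide as a block these calls were lost (-0.21, adjusted p = 0.532, and -0.52, adjusted p = 0.0857), and the Go call was also lost without control 2 (0.0622) and without Go 2 (0.0857). Probe A_23_P138796 of the same gene read 9.13, 9.07 and 9.02 on the control arrays, 9.18, 9.24 and 9.25 on the enzastaurin arrays and 8.87 and 9.01 on the Go arrays. Its enzastaurin arrays lay just above the controls and its Go arrays just below, and no comparison passed: 0.15 for enzastaurin (adjusted p = 0.127), -0.13 for Go (0.251) and -0.29 for Go against enzastaurin (0.106). The first passed when arrays were scaled to the median (0.37, adjusted p = 0.00902).

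LATS2 is a kinase of the pathway's core that is itself induced by YAP. Probe A_23_P204958 read 7.82, 7.67 and 7.90 on the control arrays, 7.57, 7.48 and 7.49 on the enzastaurin arrays and 8.13 and 8.39 on the Go arrays. The groups did not overlap: Go was highest, control between and enzastaurin lowest. Go differed from enzastaurin by 0.75 (SE 0.11, adjusted p = 0.0141; 0.88 and adjusted p = 0.0167 with the slide as a block), a call lost without enzastaurin 1, 2 or 3 (adjusted p = 0.0649, 0.0795 and 0.0663). Go differed from control by 0.46 (SE 0.11, adjusted p = 0.0223), lost with the block (0.33, adjusted p = 0.124), which leaves out Go 2, and without control 1 (0.0508) or control 2 (0.075). Enzastaurin differed from control by -0.29 (SE 0.098, adjusted p = 0.0395), called in 10 of 18 alternatives. That call was lost without control 1 (0.0888), control 3 (0.0912) or enzastaurin 1, 2 or 3 (0.0729, 0.115 and 0.106), with the block (-0.55, adjusted p = 0.106) and with arrays scaled to the median (-0.12, adjusted p = 0.413).

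Probes of 1 gene can be set against each other on each array. A change in the amount of transcript that both detect cancels out there so far as both respond to it alike, which was not tested. For CCN1, the log2 ratio of A_23_P46426 over A_23_P46429 was -0.99, -0.98 and -0.98 on the controls, -0.03, -0.03 and -0.18 with enzastaurin and -0.37 and 0.04 with Go. The controls lay close together and all 5 treated arrays apart from them, so the 2 probes changed unequally. For AMOTL1 the ratio of A_23_P138796 over A_24_P329815 was 0.70, 0.80 and 0.97 on controls, 1.68, 1.69 and 1.68 with enzastaurin and 1.14 and 1.78 with Go. For IGFBP3, A_23_P215634 over A_24_P320699 gave 1.77, 1.90 and 2.23, then 2.57, 2.67 and 2.58, then 2.35 and 3.27. In each case the Go array on the first slide lay between the controls and the enzastaurin arrays and that on the second beyond them. For AMOTL1 and IGFBP3 the ratio already rose from control 1 to control 3, and Go 1 came next in the order along that slide. Place on the slide and treatment cannot be told apart here. Such disagreement was not rare on these arrays. Of 744 genes with 3 tested probes, 21.8% had a spread between probes as wide as CCN1's 1.11 in enzastaurin against control, and of 3320 genes with 2, 15.8% were as wide as AMOTL1 (0.86) and 27% as IGFBP3 (0.64). In Go against enzastaurin the spread of CCN1 was 0.18, which 71.1% of such genes reached. Whether these probes detect different transcripts was not tested.

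**Figure D3:**
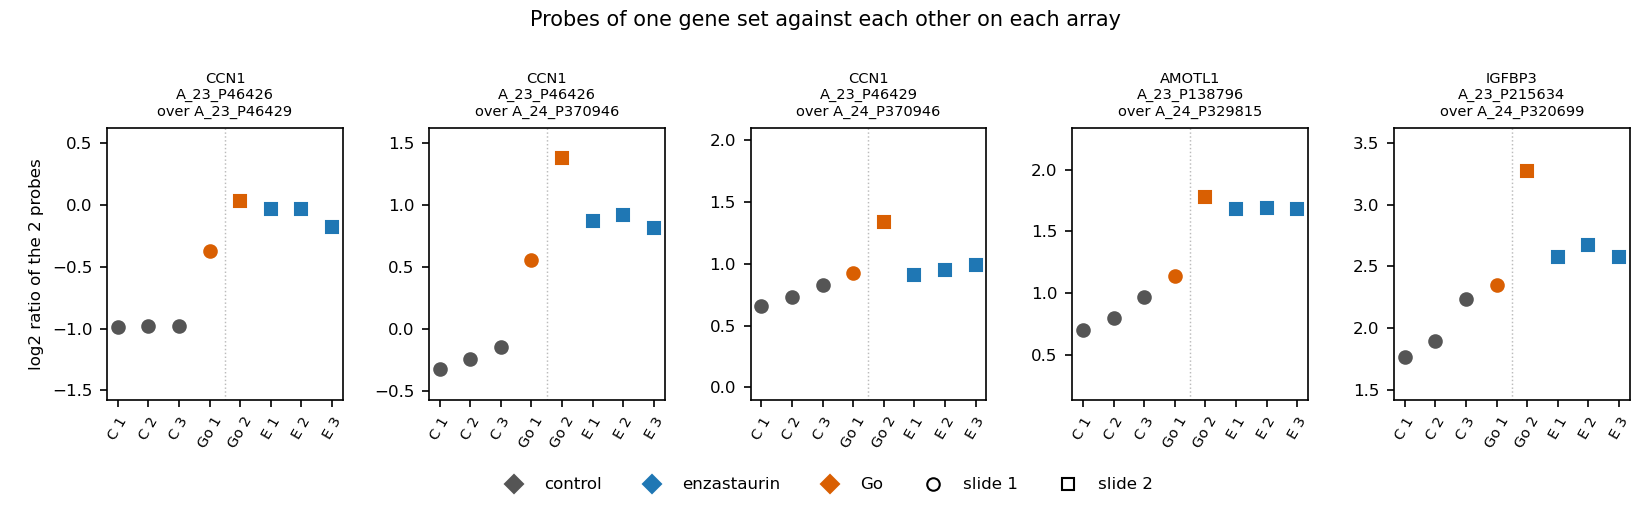
Log2 ratio of 2 probes of the same gene on each array, for the 3 pairs of CCN1 and the pairs of AMOTL1 and IGFBP3, with arrays of the first slide as circles and of the second as squares. In every panel Go 1 lies above the controls, and Go 2 lies highest, at 0.04, 1.38, 1.34, 1.78 and 3.27.

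Other genes of the pathway were read from lists, with the tested probe of highest mean for each gene. Of 13 tested further YAP and TAZ targets, 8 were lower and 1 higher with enzastaurin than with control, with a list median of -0.31 beside -0.08 for all tested probes, of which 51.9% were called. FOXF2, a forkhead transcription factor, differed by -0.88 (adjusted p = 0.000761), the membrane repair protein MYOF by -0.60 (0.00544) and CRIM1 by -0.48 (0.00811). Other probes of these genes did not all do the same: of MYOF, A_24_P282309 was lower with enzastaurin (-0.77, 0.000752) and A_23_P354387 higher with enzastaurin (0.46, 0.00365) and with Go (0.54, 0.012), and of CRIM1, A_24_P323395 differed by 0.26 with enzastaurin (0.0846). F3, tissue factor, was higher by 0.52 (0.0076). Against control, Go called 1 of the 13 higher, F3 (0.94, adjusted p = 0.00657; 0.93 and 0.0268 with the slide as a block), and 3 lower: GADD45A (-0.67), NT5E (-0.48) and ASAP1 (-0.37), against 28.8% of all tested probes called. These 3 calls were lost with the block and without Go 2 (adjusted p = 0.164, 0.163 and 0.254). They were lost too without control 1 (0.102, 0.0571 and 0.0751), control 2 (0.0953, 0.0639 and 0.109), enzastaurin 1 (0.0717, 0.0567 and 0.0807) or enzastaurin 2 (0.074, 0.0526 and 0.0784), and those of GADD45A and ASAP1 without control 3 (0.0535 and 0.0711) or enzastaurin 3 (0.0707 and 0.0737). A further NT5E probe, A_24_P316430, was higher with enzastaurin (0.54, 0.00544) where the probe of highest mean was lower (-0.36, 0.0323), and differed by 0.36 with Go (0.0642). Scaled to the median, the enzastaurin counts were 3 lower and 1 higher, and with the slide as a block none of the 13 was called in limma (1 higher and 3 lower at an unadjusted p under 0.05). Go against enzastaurin called none of the 13 in limma, although 5 were higher and 0 lower at an unadjusted p under 0.05. In the fit blocked by slide, GADD45A was called there (-0.70, adjusted p = 0.0225).

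The factors that carry the signal were also measured. YAP1 differed from control by -0.24 with enzastaurin (adjusted p = 0.0214) and -0.23 with Go (0.0574). The enzastaurin call on YAP1 was made in 12 of 18 alternatives: scaled to the median the difference was -0.012 (adjusted p = 0.908), with the slide as a block -0.17 (0.437), and the call was lost without control 2 (0.0762) or enzastaurin 1, 2 or 3 (0.0524, 0.0701 and 0.0739). A further YAP1 probe, A_24_P273679, differed by -0.19 with enzastaurin and -0.28 with Go (0.216 and 0.14). WWTR1, the gene of TAZ, differed by -0.35 (0.0121) and -0.41 (0.0231) on its main probe, while another of its 3 tested probes, A_24_P944383, gave 0.29 with enzastaurin (0.0266). Scaled to the median the WWTR1 differences were -0.15 (0.233) and -0.31 (0.0708), and its Go call was lost without control 1 (0.0579), control 2 (0.0742) or Go 2 (0.108). The TEAD partners TEAD3 (-0.64) and TEAD4 (-0.42) and the competing cofactor VGLL3 (-1.56, adjusted p = 0.00177) were lower with enzastaurin, VGLL3 and TEAD3 on 1 of their 2 tested probes each (0.04 and 0.18 on the other, adjusted p = 0.789 and 0.225), and TEAD1 differed by -0.18 (0.197). TEAD2 was higher by a fitted 1.94-fold with enzastaurin (adjusted p = 0.00238) and 1.53-fold with Go (0.0397). The size of these folds is uncertain, since no control array was above background for TEAD2. With the slide as a block its log2 differences were 0.26 with enzastaurin and 0.27 with Go. The Go call was lost without control 1 (0.095), control 2 (0.11), enzastaurin 1, 2 or 3 (0.0688, 0.0696 and 0.0667) or Go 2 (0.182). In all 5 of 8 tested were lower and 1 higher with enzastaurin, where 51.9% of all tested probes were called and 30.2% called lower. With Go it was 1 and 1, where 28.8% were called, and 0 in limma in Go against enzastaurin, where 2 were higher at an unadjusted p under 0.05. With the slide as a block none of the 8 was called in limma in any comparison, with at most 1 past an unadjusted p of 0.05 in each. Scaled to the median, the enzastaurin counts were 2 and 2.

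Among 11 tested genes of the kinase cassette and its relatives, enzastaurin called 2 higher and 2 lower, or 5 and 0 when arrays were scaled to the median, and Go 2 and 1, against 51.9% and 28.8% of all tested probes called. TAOK3, a kinase upstream of the Hippo kinases, was higher by 1.19 (adjusted p = 0.000642; 1.18 and 0.0668 with the slide as a block), and its other probe was higher as well. STK38L was higher by 0.34, TAOK2 and STK38 lower by log2 differences of -0.38 and -0.30, and a further probe of each differed by 0.26 and -0.17 (adjusted p = 0.174 and 0.197). The STK38L call was lost without control 1 (0.0503), control 2 (0.0613), enzastaurin 1 (0.062) or enzastaurin 2 (0.0716), and that of STK38 without enzastaurin 3 (0.053). The TAOK2 call was lost without control 2 (0.129), control 3 (0.0961) or enzastaurin 1, 2 or 3 (0.0832, 0.0721 and 0.127). With Go, TAOK3 (0.72) and STK38L (0.34) were higher and MAP4K4 lower (-0.77, adjusted p = 0.0189; -1.10 and 0.0023 with the block). The TAOK3 call was lost without control 2 (0.0631) or Go 2 (0.0773) and the MAP4K4 call without control 1 (0.0515) or control 2 (0.0639). The STK38L call was lost without control 1 (0.106), control 2 (0.122), enzastaurin 1, 2 or 3 (0.0795, 0.0686 and 0.0562) or Go 2 (0.213). With the block MAP4K4 was also lower with enzastaurin (-0.94, adjusted p = 0.0271), the only call there among the 5 lists. Without the block that difference was -0.29 and did not pass (adjusted p = 0.135). The block corrects it by the difference of Go 1 (9.18) and Go 2 (9.83). The other 2 tested MAP4K4 probes, compared between Go and control, differed by -0.19 and -0.28 (adjusted p = 0.344 and 0.217). Between enzastaurin and control these probes differed by 0.33 and 0.04 (adjusted p = 0.0689 and 0.84). Go against enzastaurin called none of the 11, with 1 higher and 2 lower at an unadjusted p under 0.05. The Hippo kinases STK3 and STK4 passed in no comparison. The scaffold SAV1 was lower with enzastaurin on A_23_P65555 (-0.36, adjusted p = 0.0209) and did not pass on its probe of highest mean (-0.23, 0.0663).

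**Figure D4:**
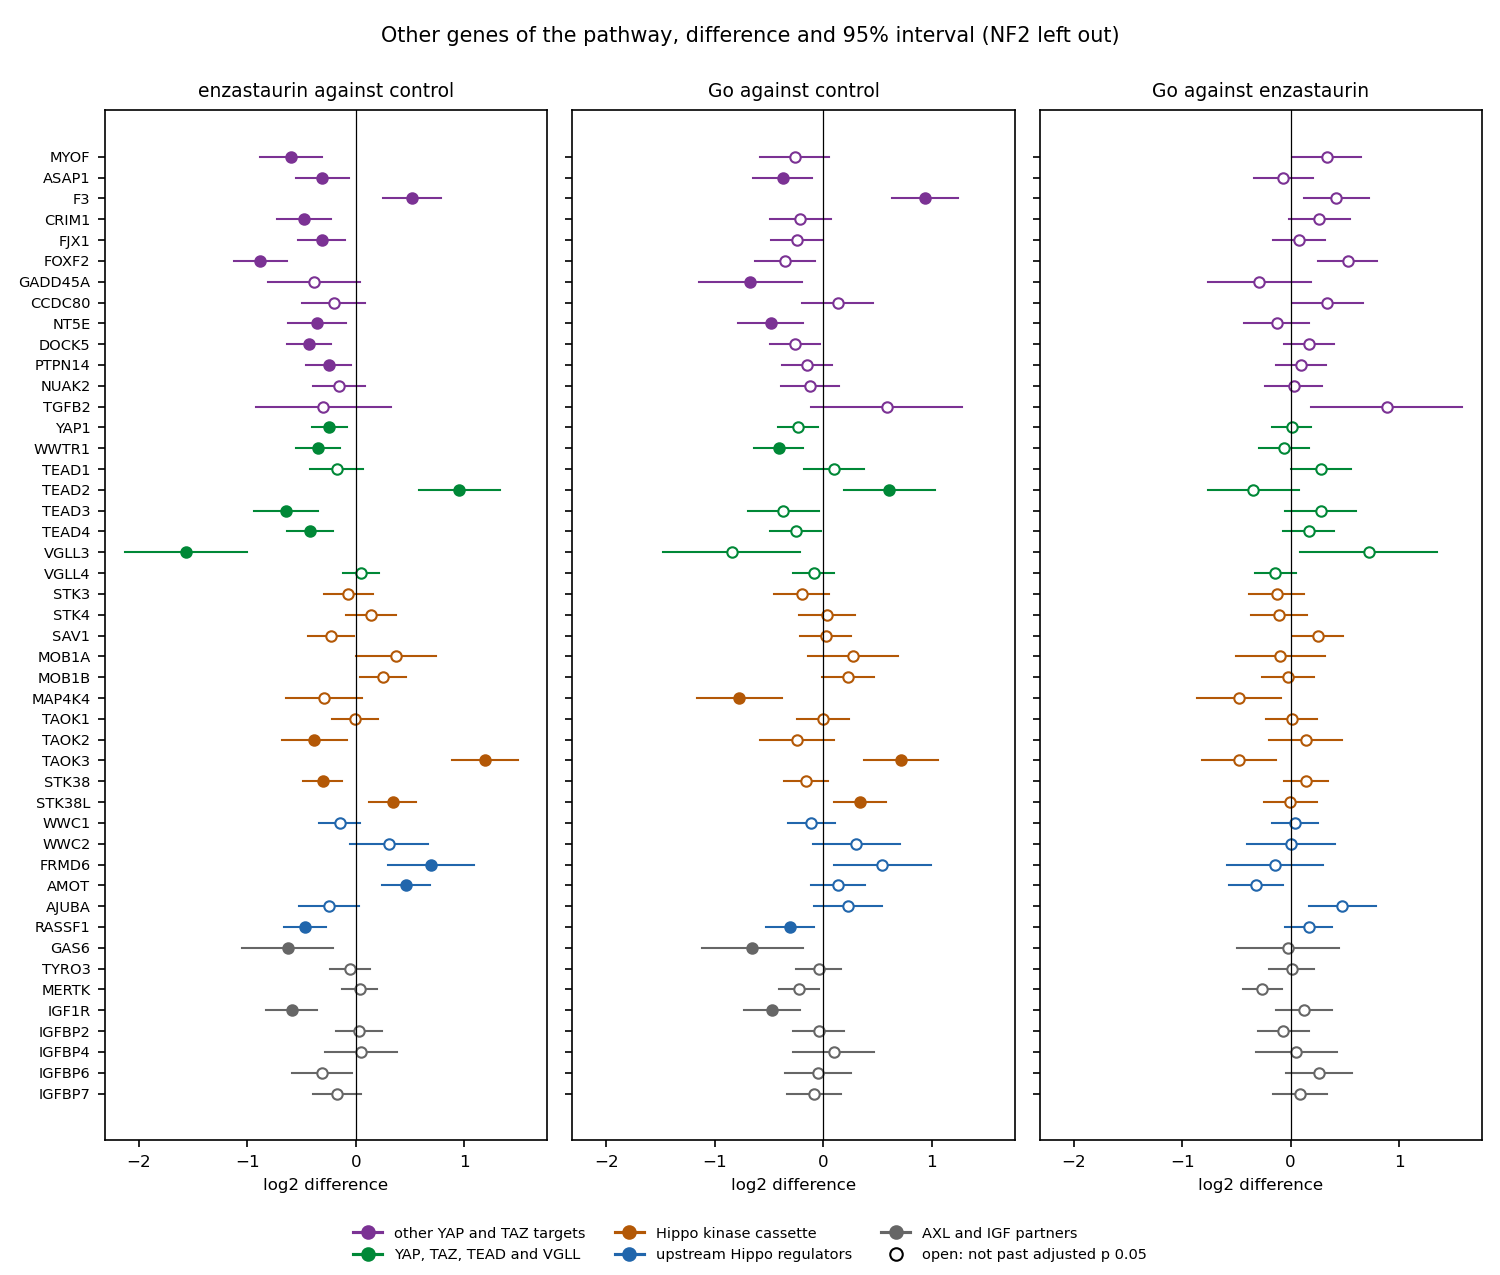
Log2 difference with 95% interval for the 46 tested genes of the 5 pathway lists other than NF2, in the 3 comparisons; filled points passed an adjusted p of 0.05. Differences of TEAD2 and IGF1R are drawn as fitted, although each has a group with no array above background. VGLL3 at -1.56 and TAOK3 at 1.19 are the farthest from 0 with enzastaurin, and no point is filled in Go against enzastaurin.

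Upstream of the kinases, 3 of 7 tested regulators, with NF2 counted by its probe of highest mean, were higher and 1 lower with enzastaurin, and 1 (NF2) and 1 with Go, against 51.9% and 28.8% of all tested probes called. FRMD6, a relative of merlin, was higher by 0.69, AMOT, another angiomotin, by 0.46, both with enzastaurin, and the scaffold RASSF1 differed by -0.47 (adjusted p = 0.00302) on A_23_P41066. The other tested RASSF1 probe, A_24_P148777, went the opposite way: it was higher with enzastaurin (0.69, adjusted p = 0.000735), differed by 0.23 with Go (0.0944) and was lower with Go than with enzastaurin (-0.46, 0.0361). With Go, A_23_P41066 differed from control by -0.30 (0.045), a call made in 5 of 18 alternatives. It was lost without control 1 (0.103), control 2 (0.108), enzastaurin 1, 2 or 3 (0.0726, 0.0771 and 0.0743), Go 1 (0.0722) or Go 2 (0.158). Once slide was a block, none of the 7 was called in limma in any comparison, with at most 2 past an unadjusted p of 0.05. Without the block, Go against enzastaurin called none of the 7 in limma, with 1 higher and 1 lower at an unadjusted p under 0.05. NF2, the gene of merlin, which activates the LATS kinases, stood out through 1 of its 4 probes. A_23_P251051 read 7.75, 8.68 and 10.06 on the controls, 12.61, 12.53 and 12.57 with enzastaurin and 11.86 and 12.75 with Go. The controls spread widely, rising from control 1 to control 3 in their order along the first slide, where Go 1 came next. All treated arrays lay above the controls, and on that slide place cannot be told apart from treatment. The differences from control were 3.74 with enzastaurin (SE 0.506, adjusted p = 0.00107; 2.85 and 0.14 with the block) and 3.47 with Go (SE 0.566, adjusted p = 0.00956; 3.03 and 0.0564 with the block, the value without Go 2 as well). The other tested NF2 probes, A_24_P168726 and A_23_P325991, differed by 0.11 and 0.01 with enzastaurin (adjusted p = 0.402 and 0.927), so the change is that of 1 probe.

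**Figure D5:**
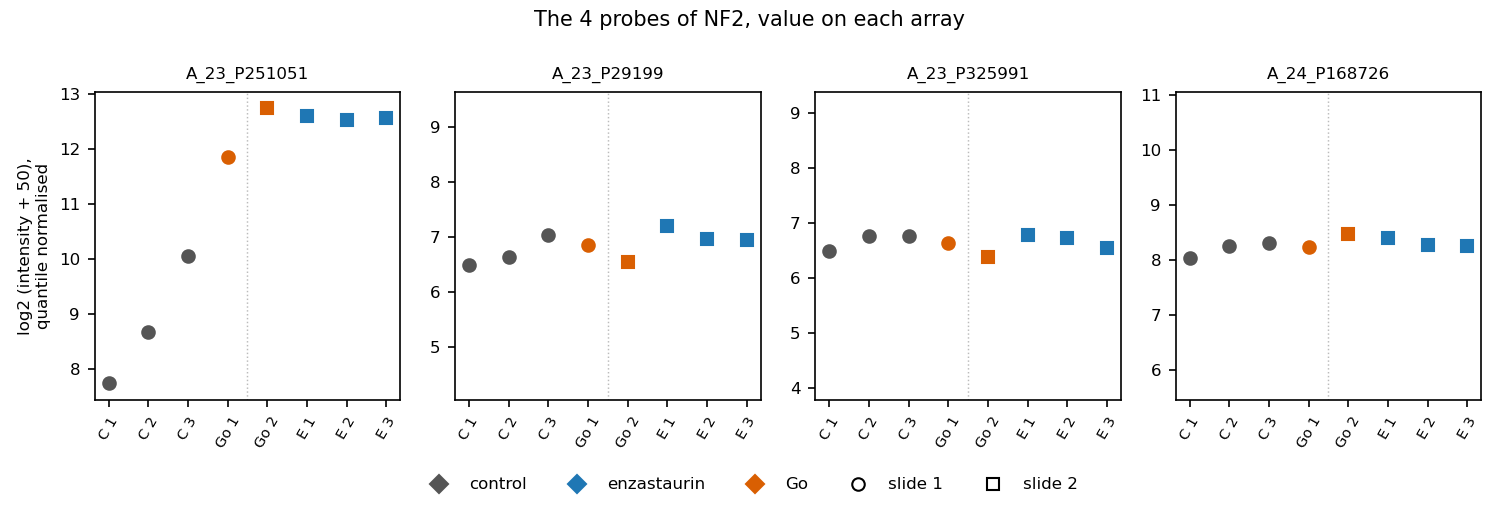
Log2 intensity (plus 50, quantile normalised) of the 4 NF2 probes by array, with slides marked by shape. A_23_P251051 goes from 7.75 on control 1 to 12.75 on Go 2, while A_24_P168726 stays between 8.04 and 8.48.

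Of 8 tested partners of AXL and of the insulin-like growth factors, GAS6, the ligand of AXL, was lower with enzastaurin (-0.63, adjusted p = 0.0211) and with Go (-0.65, 0.0455), and with the slide as a block the differences were 0.15 and -0.265. The GAS6 calls were lost without control 1 (0.0642 and 0.111), control 2 (0.0676 and 0.118), enzastaurin 1 (0.0502 and 0.0749), enzastaurin 2 (0.0692 and 0.0759) or enzastaurin 3 (0.0604 and 0.0755), and that for Go without Go 2 (0.227). IGF1R, the receptor, was lower by a fitted log2 difference of -0.59 with enzastaurin (adjusted p = 0.00239) and -0.47 with Go (0.0228). The size of these differences is uncertain, since 2 control arrays and no treated array were above background for IGF1R. Its Go call was lost without control 1 (0.0514), control 2 (0.0742), Go 1 (0.0503) or Go 2 (0.0788). These 2 of the 8 were the calls of each comparison, against 51.9% and 28.8% of all tested probes. The AXL relatives TYRO3 and MERTK and the binding proteins IGFBP2, IGFBP4, IGFBP6 and IGFBP7 passed in no comparison. Go against enzastaurin called none of the 8, with 1 lower at an unadjusted p under 0.05.

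By the shape of their values over the 8 arrays, the named genes most like CCN1 (A_23_P46429) were MYOG, CHMP5 and ULK3, with Pearson r of 0.989, 0.989 and 0.983, and those most like CCN2 were TMPO, SERINC3 and SRFBP1, with r of 0.982, 0.982 and 0.981. Of 14166 probes compared, 579 reached an r over 0.9 with CCN1 and 261 with CCN2. These are descriptions over arrays that share groups and slides.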

How the data were processed

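Cy3-labelled total RNA of CAL-27 cells was hybridised to 8 single-colour arrays, per the labels. Per the file headers, GenePix gave the deposited tables of each spot's intensity, percent of saturated pixels, flag and signal-to-noise score. The signal came from the deposited table of intensity values per probe, close by comparison to foreground median minus background, with a floor of 0.5, no scaling between arrays and medians of 38 to 56. How that table was made is not given in the sources used here. In the scanner tables the annotation runs in reverse order against the spots: their rank correlation with the value table was at most 0.00923 as deposited and at least 0.99 when turned, and the turned order gave each probe's signal-to-noise score. No member probe was saturated.

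Values plus 50 were turned to log2, quantile normalised and tested per probe with limma 3.58.1 in R 4.3.3, in 1 fit with 3 group means (residual degrees of freedom 5, prior 3.18), checked on simulated data. Of 41000 probes, 26823 received a symbol through RefSeq (GRCh38.p14) accessions or names. Where a probe was above background on no array of a group, the size of its fold is uncertain. The number of arrays limits the precision. The member genes, lists and tests were chosen with earlier results of these data known; from each list up to 4 called genes of largest change were named, and YAP1, WWTR1, TEAD1, TEAD4, NF2 and AMOT in any case, with the 3 genes of highest Pearson r for CCN1 and CCN2. List genes named as passing in no comparison were chosen after their values were seen. Alternatives covered the signal source, scaling, offset, filter, unit tested, slide, replicate number, arrays fitted and each array left out; those for the lists were chosen after seeing the data.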

Additional observations from a re-analysis of the deposited data

How the results depend on the processing

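Over all 24772 probes the calls numbered 12848 for enzastaurin against control, 7140 for Go against control and 948 for Go against enzastaurin, and those among the 12 tested probes of the members 9, 4 and 5. With 1 probe per gene the first 2 counts were 6960 and 4014, with fewer probes tested, and Go against control called 2 of the genes. With the slide as a block, enzastaurin against control called 722 probes and 1 of the 12, Go against control 1336 and 2, and Go against enzastaurin 2 of the 12. In a fit of only Go and control 1 probe and 0 of the 12 passed in limma (8132 and 4 at an unadjusted p under 0.05). Leaving out each array in turn gave 9374 to 14137 calls for enzastaurin against control, 986 to 9939 for Go against control and 106 to 2416 for Go against enzastaurin, and among the 12 probes 8 to 10, 1 to 8 and 1 to 8. Whether replicate numbers pair the arrays could not be decided. The correlation of deviations from group means ran from -0.144 to 0.167 between the 7 same-numbered pairs, with a median of 0.092. For other pairs it ran from -0.215 to 0.215, with a median of -0.052. The deviations of the 2 Go arrays mirror each other, so each correlation with Go 1 fixes that with Go 2 at the opposite sign. With the replicate number as a block, Go against enzastaurin called 213 probes and 2 of the 12, ARHGEF17 and AMOTL2.

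Of 636 single values of the 12 probes under alternatives, 547 kept direction and call, 54 lost the call, 15 gained it and 20 changed sign. With the slide as a block the sign changed, in enzastaurin against control, for CCN2 (0.14) and IGFBP3 A_24_P320699 (0.0074), in Go against control for CCN1 A_23_P46429 (0.12), CCN2 (0.0084) and AMOTL2 (0.016), and in Go against enzastaurin for CCN1 A_24_P370946 (-0.0042), CCN2 (-0.13) and IGFBP3 A_24_P320699 (-0.10). Scaled to the median, it changed with Go for CCN1 A_23_P46429 (0.038) and AMOTL2 (0.12) against control and for CCN2 against enzastaurin (-0.035). With 1 array left out the differences of Go from control ran from -0.44 to 0.12 for CCN1 A_23_P46429, -0.37 to 0.0084 for CCN2, -0.12 to 0.073 for AMOTL2 and -0.0043 to 0.29 for IGFBP3 A_23_P215634. Those of Go from enzastaurin ran from -0.0042 to 0.96 for CCN1 A_24_P370946, -0.13 to 0.25 for CCN2, -0.31 to 0.19 for AMOTL1 A_24_P329815 and -0.10 to 1.12 for IGFBP3 A_24_P320699. Of the called list genes named in the text, GAS6 alone changed sign, with the slide as a block (0.15). The cause was not tested. With 2 arrays of Go, 1 on each slide, a difference between them cannot be told apart from one between slides.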
